A study of Homo sapiens with 12 samples.

Results

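The 42 genes described here encode the machinery that copies DNA in S phase, and their transcripts were measured by RNA sequencing in LM2 cells, a lung-metastatic derivative of the MDA-MB-231 breast cancer line. They were chosen by symbol from a list drawn up with earlier results of these data known. All 42 of 42 stood on a single row of the deposited table, which held 24556 gene names after repeated symbols were merged. The study had 4 groups of 3 libraries, all from these cells: an EZH2 short hairpin RNA (shRNA), a scramble shRNA, a ZRANB1 small interfering RNA (siRNA) and a scramble siRNA. Whether replicate libraries were grown apart is not in the labels, so a p-value here measures no more than the spread among libraries, part of which may be technical.

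In eukaryotes, the origin recognition complex with CDC6 and CDT1 loads the ring-shaped MCM helicase onto DNA in G1 phase. CDC45 and the GINS complex join it to form the active helicase, polymerase alpha with its primase lays down primers, and polymerases delta and epsilon extend them while held by the PCNA clamp that the RFC complex loads. Many of these genes are activated together by E2F transcription factors at the passage from G1 to S phase. EZH2 is the histone H3 lysine 27 methyltransferase of Polycomb repressive complex 2, and ZRANB1 (also called TRABID) removes ubiquitin from proteins.

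Expression was deposited as FPKM, fragments per kilobase of transcript scaled to the mapped fragments of a library, so levels of different genes can be set side by side. The sequencing depth behind the values is unknown. Within a group the 3 values of a row stood in text order in 100% of rows with 3 different values. No value could therefore be followed to its library, and values are given below from lowest to highest. Differences are on the scale of log2(FPKM + 1) from limma, fitted to the 11929 genes averaging 1 FPKM or more. A gene was called at a Benjamini-Hochberg adjusted p below 0.05. All 42 replication genes passed this filter, and all 42 averaged at least 5 FPKM.

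The targeted genes were compared first. EZH2 stood at 16.1, 16.1 and 17.3 FPKM in EZH2 shRNA cells, against 34.2, 35.6 and 36.3 FPKM in scramble shRNA cells (log2 difference -1.06, SE 0.069, adjusted p = 1.34e-05 by limma). ZRANB1 stood at 9.05, 9.49 and 11.5 FPKM in ZRANB1 siRNA cells, against 10.5, 11.5 and 12.1 FPKM in scramble siRNA cells. The EZH2 groups were far apart. Those of ZRANB1 overlapped, and its log2 difference of -0.17 (95% interval -0.42 to 0.08) was not called (adjusted p = 0.349 by limma). A lower ZRANB1 transcript was thus not shown, and the directions in that comparison belong to the siRNA label, not to a measured loss of ZRANB1. EZH2 was also lower there, at 30.4 ± 2.08 FPKM in ZRANB1 siRNA cells and 48.6 ± 2.097 FPKM in scramble siRNA cells (SD, n = 3 each). Its log2 difference was -0.66 (adjusted p = 5.43e-05 by limma). In scramble shRNA cells EZH2 averaged 35.4 ± 1.07 FPKM, so the 2 controls differed for EZH2 too, without overlap. The part of this control difference in the ZRANB1 siRNA comparison was not tested.

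The breast cancer line markers VIM, KRT18, KRT8, CD44, AXL and LAMB3 all averaged at least 1 FPKM, with a summed level of 3780.1 to 4150.0 FPKM over the 4 groups, most of it VIM. The sum hides markers that differed: CD44 averaged 206 ± 10.9 FPKM in ZRANB1 siRNA cells and 118 ± 8.84 FPKM in scramble siRNA cells (log2 difference 0.80, adjusted p = 7.61e-05 by limma), and LAMB3 203 ± 20.3 FPKM in ZRANB1 siRNA cells and 119 ± 10.7 FPKM in scramble siRNA cells (log2 difference 0.76, adjusted p = 4.73e-04 by limma). In scramble shRNA cells CD44 was at 264 FPKM and LAMB3 at 274 FPKM. Of 7 luminal markers, ERBB2, GATA3 and EPCAM reached a mean of 1 FPKM over the 12 values. PGR was listed at 0 in all 12 values, and the sum was 21.8 to 32.4 FPKM. Of 5 blood markers, CD14 and HBB reached that mean, and the sum was 2.31 to 5.07 FPKM. Of 4 endothelial markers 0 reached that mean, with a sum of 0.822 to 2.06 FPKM. By group, PECAM1 averaged 1.57 FPKM in scramble shRNA cells and 1.09 FPKM in EZH2 shRNA cells. It averaged 0.316 FPKM in scramble siRNA cells and 0.678 FPKM in ZRANB1 siRNA cells. Of 6 fibroblast markers COL1A1 alone did, and their sum was 19.9 FPKM in EZH2 shRNA cells against 25.0 FPKM in scramble shRNA cells, and 17.3 FPKM in ZRANB1 siRNA cells against 8.15 FPKM in scramble siRNA cells. The part of these markers in the results below was not tested.

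The replication genes were all expressed, but subunits of 1 complex stood at very different levels. With the EZH2 shRNA, the helicase subunit MCM7 had the highest mean of the 42, at 119 ± 13.9 FPKM in EZH2 shRNA cells (SD, n = 3), while MCM6, another subunit of the same ring, was at 25.8 ± 2.09 FPKM in EZH2 shRNA cells. The ratio of these means was 4.61 in EZH2 shRNA cells and 4.22 in scramble shRNA cells, and 4.30 in ZRANB1 siRNA cells and 4.03 in scramble siRNA cells. The low end was held by POLA1, the catalytic subunit of polymerase alpha, in both shRNA groups and by ORC1, the largest origin recognition subunit, in both siRNA groups. The clamp gene PCNA stood well above its loader, at 115 ± 3.58 FPKM in EZH2 shRNA cells, where the large loader subunit RFC1 was at 14.0 ± 1.77 FPKM in EZH2 shRNA cells. Within-group spread was small for most members. The median coefficient of variation over the 42 was 9.32% in EZH2 shRNA cells and 6.97% in scramble shRNA cells, and 7.01% in ZRANB1 siRNA cells and 6.70% in scramble siRNA cells. POLD1, the catalytic subunit of polymerase delta, was the most variable member in 3 of the 4 groups, reaching 22.6% in EZH2 shRNA cells.

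**Figure D1:**
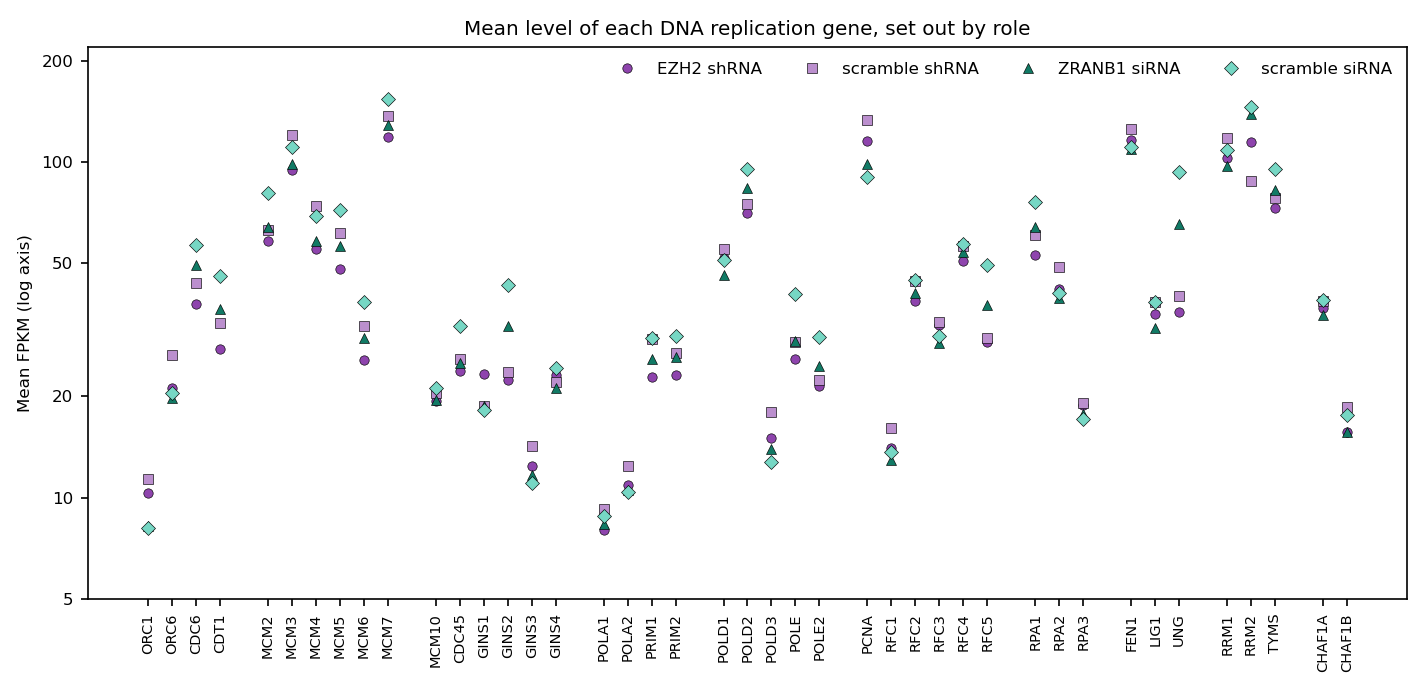
Mean FPKM (log axis) of each of the 42 DNA replication genes in each of the 4 groups of 3 libraries, with genes set out by role from origin loading on the left to chromatin assembly on the right. Genes of 1 role differ widely in level, and UNG and GINS2 have the widest spread of group means, followed by RFC5, RRM2 and CDT1.

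The first comparison asked how these transcripts differ when EZH2 is depleted. Of the 42 genes, 4 fell with the EZH2 shRNA, 0 rose and 38 did not pass the test, with 19 at an unadjusted p below 0.05. The genes that fell were the helicase subunits MCM4, MCM3 and MCM6 and the origin recognition subunit ORC6. Called genes made up 9.52% of the members, beside 6.41% of all genes tested (3.03% of all genes tested lower and 3.39% higher). The log2 difference was below 0 in 39 of 42 members (92.9%), beside 53.0% of all genes tested. Its median was -0.16 in the members and -0.01 over all genes. In 15 members (35.7%) the 3 values all lay below the 3 control values, beside 11.6% of all genes tested. The shifts were modest and ran from -0.42 for MCM4 to 0.37 for RRM2. Of the 4 called genes, ORC6 was also called lower in scramble siRNA cells than in scramble shRNA cells. MCM6 was called higher there, and MCM3 and MCM4 were not called. That comparison of the controls uses the same scramble shRNA values.

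MCM4 had the lowest adjusted p among the members. It stood at 54.6, 55.2 and 55.4 FPKM in EZH2 shRNA cells, against 71.8, 74.3 and 75.8 FPKM in scramble shRNA cells, or 74.4% of the control mean. The groups were well apart (log2 difference -0.42, SE 0.053, adjusted p = 9.69e-04 by limma). MCM3, of the same ring, stood at 90.8, 95.7 and 97.998 FPKM in EZH2 shRNA cells, against 116, 121 and 124 FPKM in scramble shRNA cells (log2 difference -0.34, SE 0.063, adjusted p = 0.00936 by limma). Its groups did not overlap either. MCM6 stood at 23.9, 25.4 and 28.0 FPKM in EZH2 shRNA cells, against 29.7, 33.8 and 34.0 FPKM in scramble shRNA cells (log2 difference -0.32, SE 0.086, adjusted p = 0.0474 by limma). Its highest EZH2 shRNA value lay just under its lowest control value. ORC6, the smallest subunit of the origin recognition complex, stood at 20.6, 21.2 and 21.7 FPKM in EZH2 shRNA cells, against 25.2, 26.5 and 28.3 FPKM in scramble shRNA cells (log2 difference -0.32, SE 0.066, adjusted p = 0.0166 by limma), again without overlap.

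Of the other helicase subunits, MCM7 averaged 119 ± 13.9 FPKM in EZH2 shRNA cells and 137 ± 6.97 FPKM in scramble shRNA cells (SD, n = 3 each), and the groups overlapped. MCM5 averaged 48.1 ± 7.94 FPKM in EZH2 shRNA cells and 61.5 ± 7.20 FPKM in scramble shRNA cells, with a log2 difference of -0.35 and a wide 95% interval of -0.69 to -0.01; its groups overlapped too. MCM2 averaged 58.3 ± 9.41 FPKM in EZH2 shRNA cells and 62.8 ± 4.52 FPKM in scramble shRNA cells, with overlap and the smallest difference of the ring (log2 difference -0.12, adjusted p = 0.642 by limma). All 6 subunits of the ring had a difference below 0, with a median of -0.33. The 4 genes of origin loading had a median of -0.23. The loading factor CDC6 averaged 37.7 ± 5.06 FPKM in EZH2 shRNA cells and 43.7 ± 4.38 FPKM in scramble shRNA cells, and its partner CDT1 27.7 ± 4.15 FPKM in EZH2 shRNA cells and 33.1 ± 3.89 FPKM in scramble shRNA cells; neither was called.

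No other role had a called member in this comparison. Medians of the log2 difference were -0.20 for primase and polymerase alpha, -0.10 for polymerases delta and epsilon, -0.17 for the clamp and its loader, and -0.19 for the single-strand binding complex RPA. They were -0.12 for FEN1, LIG1 and UNG, which finish and clean the new strand, and -0.16 for the chromatin assembly factor CAF-1. For helicase activation the median was -0.07, with 2 of 6 members above 0. For deoxynucleotide supply it was -0.11, with 1 of 3 members above 0. PRIM1, the catalytic primase subunit, stood at 19.5, 21.1 and 27.9 FPKM in EZH2 shRNA cells, against 26.7, 30.1 and 32.5 FPKM in scramble shRNA cells (log2 difference -0.38, adjusted p = 0.104 by limma). Its highest EZH2 shRNA value reached into the control range. PCNA stood at 111, 117.3 and 117.4 FPKM in EZH2 shRNA cells, against 124, 131 and 144 FPKM in scramble shRNA cells (log2 difference -0.20, adjusted p = 0.159 by limma). Its groups did not overlap, and the test was not passed.

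The difference was positive for 3 members, none of them called. RRM2, the small subunit of the ribonucleotide reductase that makes deoxynucleotides, stood at 98.9, 109 and 137 FPKM in EZH2 shRNA cells, against 82.2, 86.5 and 94.6 FPKM in scramble shRNA cells (log2 difference 0.37, SE 0.12, adjusted p = 0.102 by limma). The groups were apart, but the EZH2 shRNA values were widely spread. The large subunit RRM1 averaged 103 ± 9.10 FPKM in EZH2 shRNA cells and 118 ± 8.24 FPKM in scramble shRNA cells. GINS1 stood at 20.8, 24.4 and 25.0 FPKM in EZH2 shRNA cells, against 16.6, 17.8 and 21.7 FPKM in scramble shRNA cells (log2 difference 0.31, adjusted p = 0.106 by limma), with overlap, and GINS4, another GINS subunit, averaged 23.3 ± 2.18 FPKM in EZH2 shRNA cells and 22.1 ± 0.520 FPKM in scramble shRNA cells.

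An exact permutation test (two-sided) with 3 values against 3 cannot give less than p = 0.1, and it gave 0.1 for MCM4, MCM3, MCM6 and ORC6. With the 6 values of these groups fitted alone, MCM4 was the single member called. The call of MCM6 was also lost in fits that left out 1 siRNA value, which are not among the 13 settings below. The call of MCM6 was lost in 8 of 13 alternative settings (adjusted p of 0.0409 to 0.163), that of ORC6 in 3 of 13 alternative settings (adjusted p of 0.0133 to 0.111) and that of MCM3 in 1 of 13 alternative settings (adjusted p of 0.00651 to 0.0612), by limma.

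**Figure D2:**
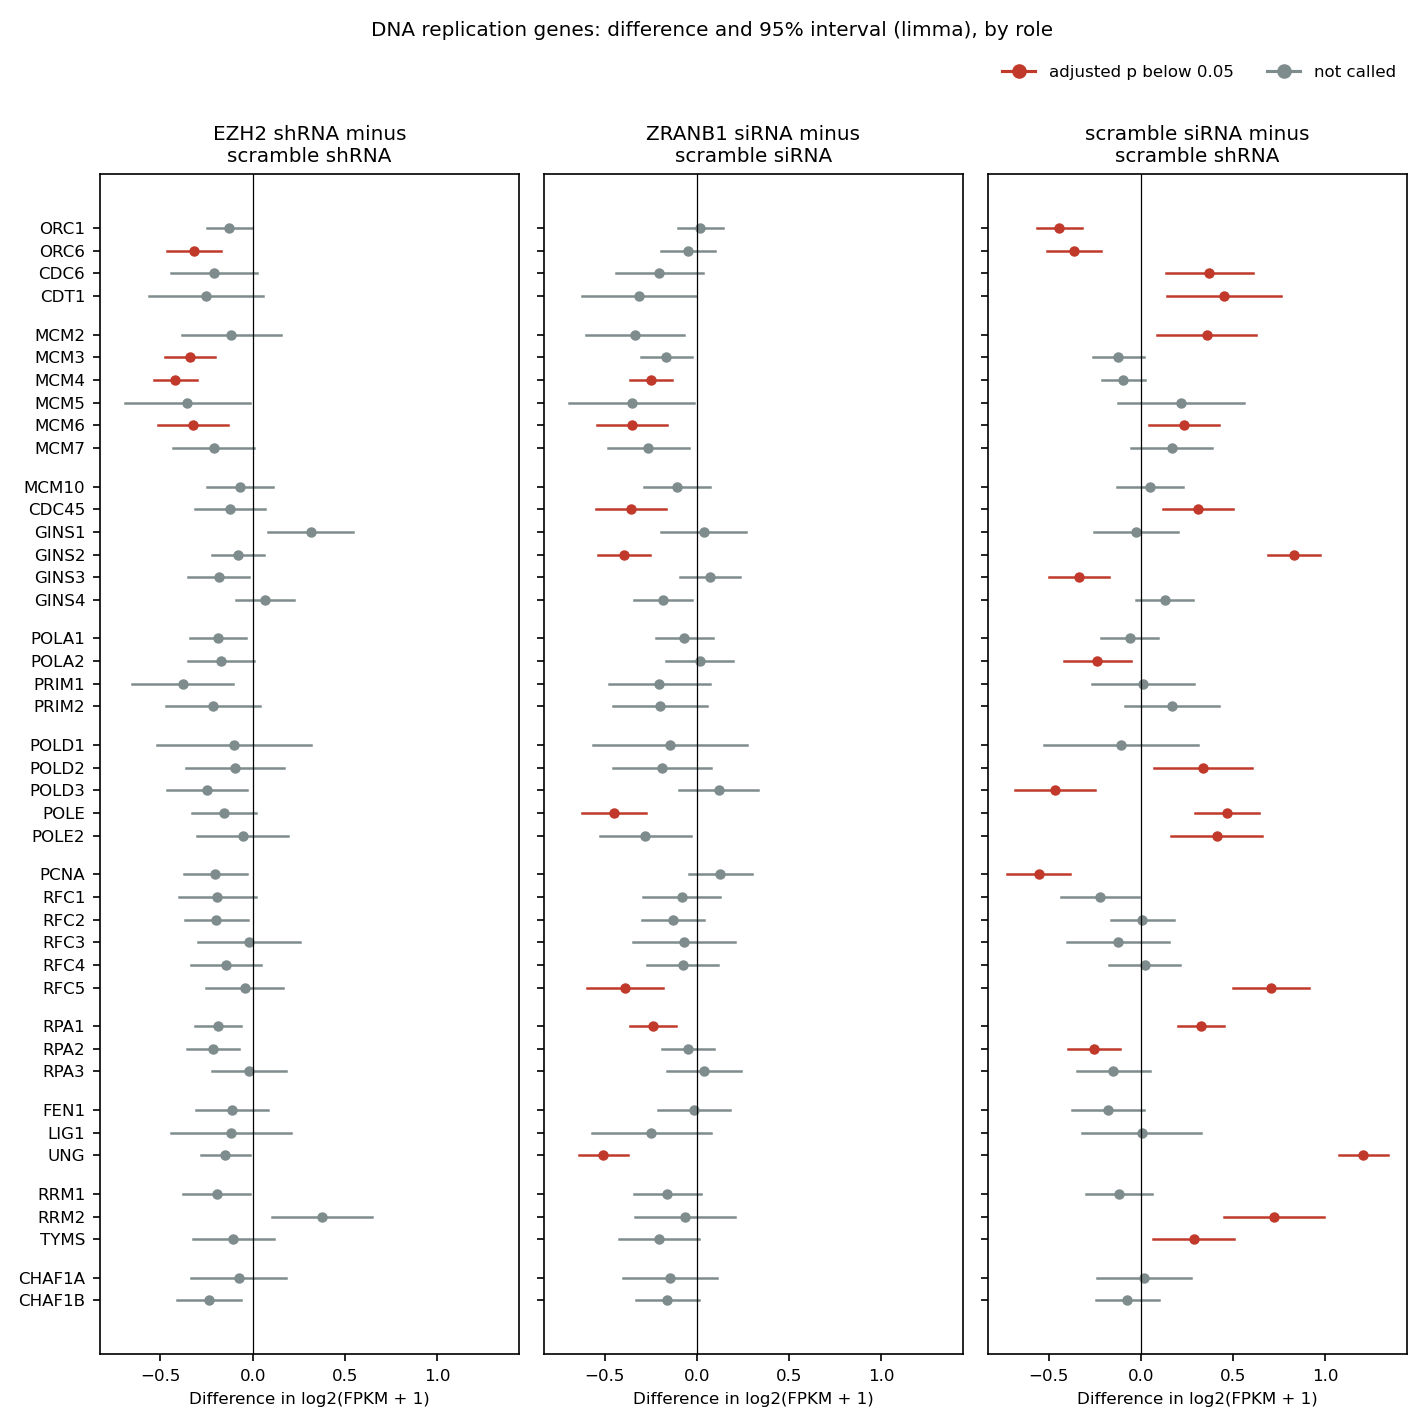
Difference in log2(FPKM + 1) of each of the 42 genes, with its 95% interval from limma, for the EZH2 shRNA minus the scramble shRNA (left), the ZRANB1 siRNA minus the scramble siRNA (middle) and the scramble siRNA minus the scramble shRNA (right). Red marks an adjusted p below 0.05, with 4, 8 and 21 such genes; points of the left and middle panels lie mostly below 0, and those of the right panel lie on both sides.

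The next comparison asked how these transcripts differ with the ZRANB1 siRNA. Of the 42 genes, 8 fell, 0 rose and 34 did not pass the test, with 15 at an unadjusted p below 0.05. The genes that fell were UNG, GINS2, POLE, MCM4, RPA1, RFC5, CDC45 and MCM6. They were 19.0% of the members, beside 16.6% of all genes tested (6.50% of all genes tested lower and 10.1% higher). The log2 difference was below 0 in 35 of 42 members (83.3%), beside 53.2% of all genes tested. Its median was -0.16 in the members and -0.02 over all genes. In 19 members (45.2%) all 3 values lay below the 3 control values, beside 18.0% of all genes tested. The called genes, all but MCM4, were also called higher in scramble siRNA cells than in scramble shRNA cells. That comparison uses the same scramble siRNA values.

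UNG, the glycosylase that removes uracil from DNA, had the largest log2 difference. It stood at 62.8, 64.9 and 67.9 FPKM in ZRANB1 siRNA cells, against 91.4, 93.8 and 93.9 FPKM in scramble siRNA cells, or 70.1% of the control mean. The groups were far apart (log2 difference -0.51, SE 0.061, adjusted p = 1.59e-04 by limma). POLE, the catalytic subunit of polymerase epsilon, stood at 27.0, 29.9 and 31.1 FPKM in ZRANB1 siRNA cells, against 37.3, 41.6 and 42.3 FPKM in scramble siRNA cells (log2 difference -0.45, SE 0.079, adjusted p = 0.00253 by limma). Its groups were also apart. Its partner POLE2 averaged 24.6 ± 3.04 FPKM in ZRANB1 siRNA cells and 30.0 ± 2.51 FPKM in scramble siRNA cells, with overlapping values, and was not called.

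Of the genes that turn the loaded ring into the active helicase, GINS2 and CDC45 fell. GINS2 stood at 31.2, 31.5 and 34.4 FPKM in ZRANB1 siRNA cells, against 41.7, 42.6 and 44.2 FPKM in scramble siRNA cells (log2 difference -0.40, SE 0.065, adjusted p = 0.00153 by limma). CDC45 stood at 22.9, 25.7 and 26.8 FPKM in ZRANB1 siRNA cells, against 29.3, 32.2 and 35.9 FPKM in scramble siRNA cells (log2 difference -0.36, SE 0.087, adjusted p = 0.016 by limma). In both genes the groups were apart. The log2 difference was 0.04 for GINS1, 0.07 for GINS3 and -0.18 for GINS4, the partners of GINS2, and none of these was called.

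In the helicase ring, MCM4 stood at 57.4, 57.7 and 59.0 FPKM in ZRANB1 siRNA cells, against 68.1, 69.4 and 70.0 FPKM in scramble siRNA cells (log2 difference -0.25, SE 0.053, adjusted p = 0.00746 by limma). MCM6 stood at 27.3, 30.4 and 31.9 FPKM in ZRANB1 siRNA cells, against 36.4, 39.0 and 39.5 FPKM in scramble siRNA cells (log2 difference -0.35, SE 0.086, adjusted p = 0.0164 by limma). Neither gene's groups overlapped. All 6 ring subunits had a difference below 0 and an unadjusted p below 0.05, with a median difference of -0.30. MCM7 averaged 128 ± 11.1 FPKM in ZRANB1 siRNA cells and 154 ± 13.6 FPKM in scramble siRNA cells, without overlap (adjusted p = 0.101 by limma). MCM2 averaged 63.9 ± 7.31 FPKM in ZRANB1 siRNA cells and 80.7 ± 6.18 FPKM in scramble siRNA cells, also without overlap (adjusted p = 0.0873 by limma).

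RFC5, a small subunit of the clamp loader, stood at 33.0, 38.8 and 40.9 FPKM in ZRANB1 siRNA cells, against 47.9, 49.7 and 50.4 FPKM in scramble siRNA cells (log2 difference -0.39, SE 0.094, adjusted p = 0.0157 by limma). The groups were apart. The loader subunits RFC1 to RFC4 had differences of -0.13 to -0.07 and were not called. RPA1, the large subunit of the complex that coats single-stranded DNA, stood at 61.5, 64.8 and 66.1 FPKM in ZRANB1 siRNA cells, against 74.1, 76.1 and 77.5 FPKM in scramble siRNA cells (log2 difference -0.24, SE 0.057, adjusted p = 0.0138 by limma). It too showed no overlap. Its smaller partners RPA2 and RPA3 had differences of -0.05 and 0.04. PCNA stood at 92.5, 100.1 and 103 FPKM in ZRANB1 siRNA cells, against 86.0, 87.0 and 97.97 FPKM in scramble siRNA cells, with overlap and no call (log2 difference 0.13).

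The remaining roles had no called member in this comparison. The median difference was -0.12 for origin loading, where CDC6 averaged 49.2 ± 4.47 FPKM in ZRANB1 siRNA cells and 56.6 ± 2.63 FPKM in scramble siRNA cells. It was -0.13 for primase and polymerase alpha, -0.16 for deoxynucleotide supply and -0.15 for CAF-1. ORC6, lower with the EZH2 shRNA, averaged 19.8 ± 0.727 FPKM in ZRANB1 siRNA cells and 20.5 ± 0.947 FPKM in scramble siRNA cells.

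The exact permutation test gave its smallest possible p of 0.1 for all 8 called genes. The calls of UNG, GINS2, POLE and MCM4 were lost in 0 of 13 alternative settings. The call of MCM6 was lost in 3 of 13 alternative settings (adjusted p of 0.0153 to 0.0691), that of CDC45 in 3 of 13 alternative settings (adjusted p of 0.0128 to 0.0659), that of RFC5 in 3 of 13 alternative settings (adjusted p of 0.015 to 0.059) and that of RPA1 in 2 of 13 alternative settings (adjusted p of 0.00559 to 0.0536), by limma.

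**Figure D3:**
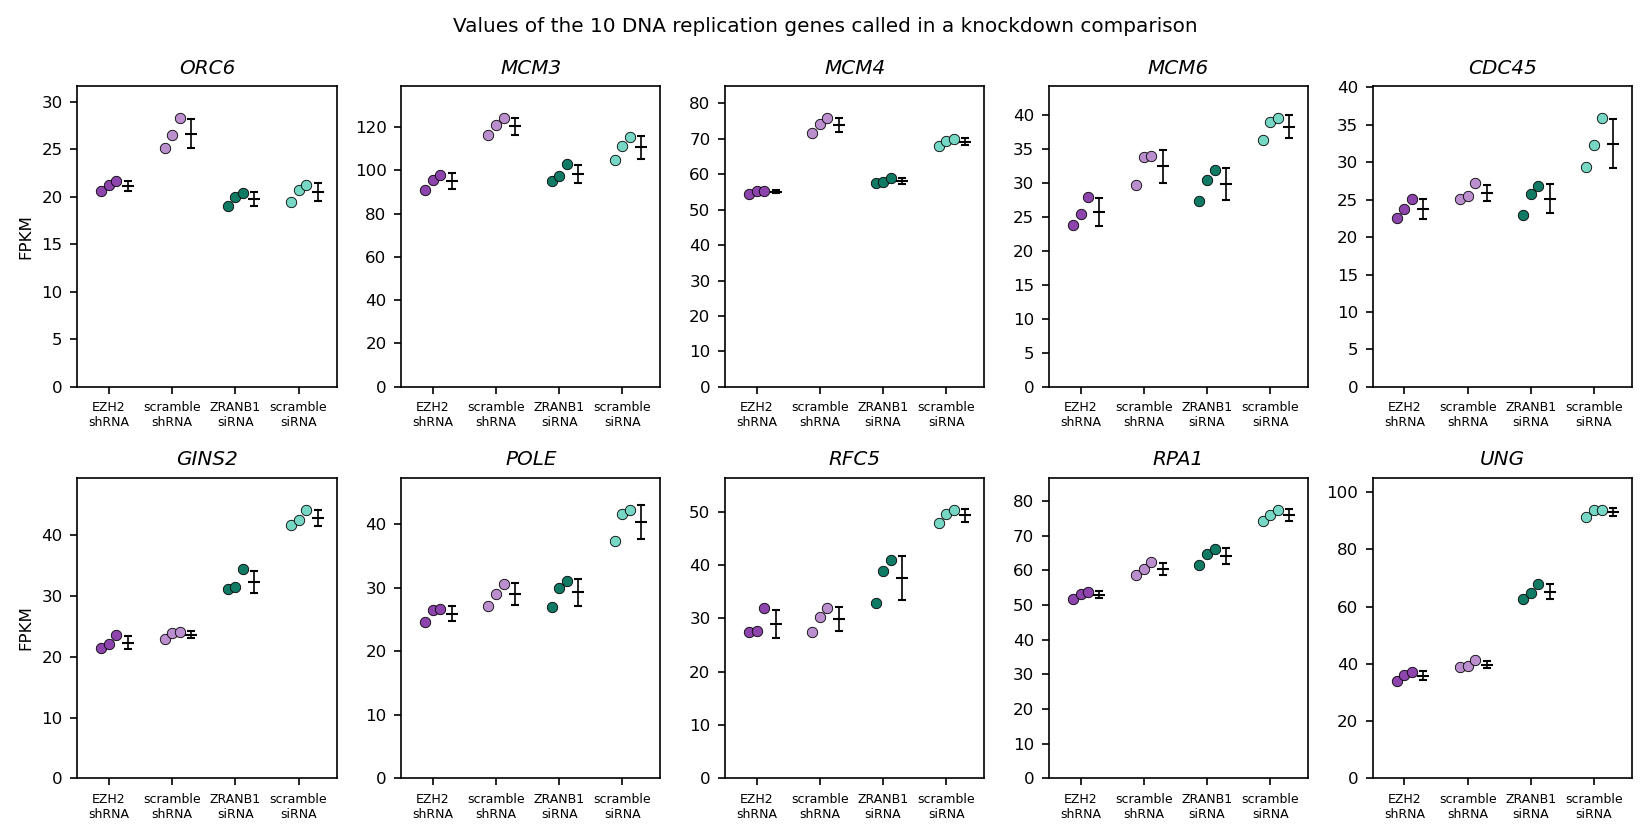
FPKM of the 10 genes called in a knockdown comparison, with 3 values per group as points and the group mean ± SD as a bar beside them; axes start at 0. MCM4 and MCM6 are lower in both treated groups than in their own controls, and in UNG, GINS2 and RFC5 both siRNA groups stand above both shRNA groups.

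The EZH2 shRNA and ZRANB1 siRNA comparisons share no libraries, but both were read from 1 fit with 1 estimate of spread per gene. Their calls are therefore not independent. The genes called lower in both were 2, MCM4 and MCM6. They were 50% of the members called lower with the EZH2 shRNA and 25% of those called lower with the ZRANB1 siRNA. Over all genes tested, 50 genes were lower in both, or 13.9% and 6.45% of those lists. The pair rests on MCM6: where its EZH2 shRNA call was lost (8 of 13 settings) or its ZRANB1 siRNA call was lost (3 of 13), MCM4 was left, joined only with no filter by RPA1. Beyond those 13 settings, the EZH2 shRNA call of MCM6 was also lost without any 1 of the scramble siRNA values. The same held without some of the ZRANB1 siRNA values, though no shRNA value had changed. The difference was below 0 in both comparisons for 33 of 42 members (78.6%), beside 30.4% of all genes tested, and 0 members were called in opposite directions. Whether the effects differed was tested directly, and the test was passed by 2 of 42 members (4.76%), beside 10.5% of all genes tested. UNG had -0.15 for the EZH2 shRNA and -0.51 for the ZRANB1 siRNA (difference 0.36, SE 0.086, adjusted p = 0.0205 by limma). GINS2 had -0.08 and -0.40 (difference 0.32, SE 0.091, adjusted p = 0.0494 by limma). The call of GINS2 was lost in 13 of 18 alternative settings (adjusted p of 0.0354 to 0.115) and that of UNG in 1 of 18 alternative settings (adjusted p of 0.0107 to 0.0508), by limma. For ORC6, MCM3, POLE, RFC5, RPA1 and CDC45, called in 1 comparison alone, a difference between the effects was not shown.

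**Figure D4:**
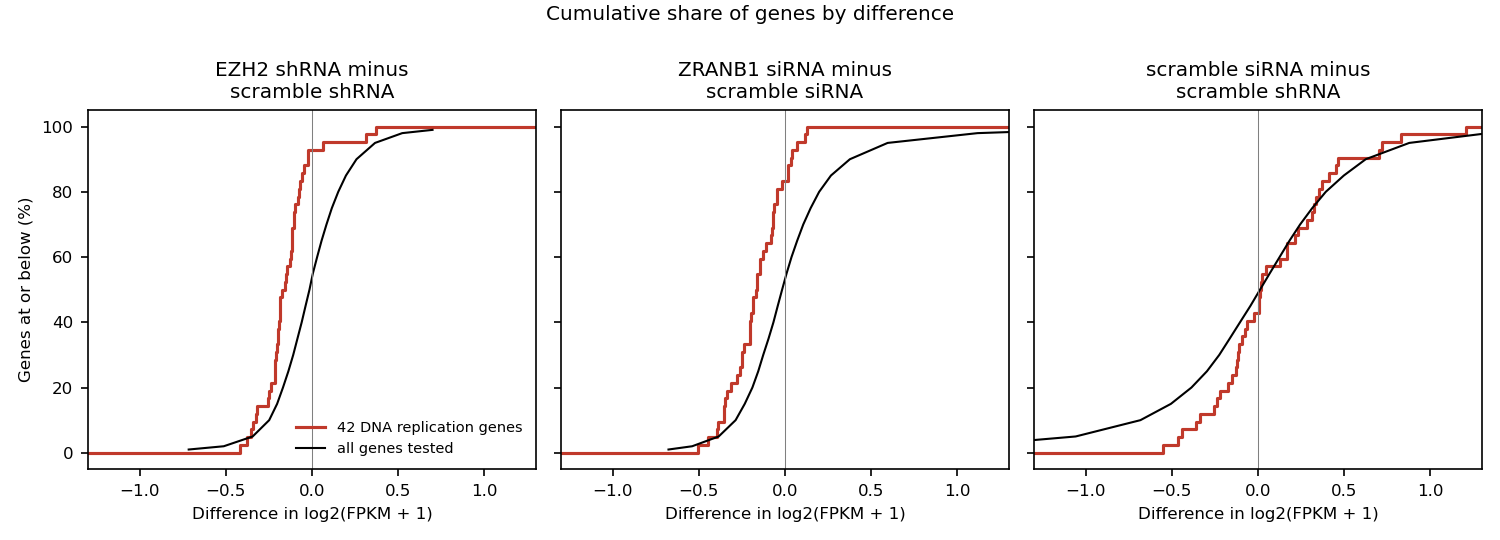
Cumulative share of genes (%) at or below each difference in log2(FPKM + 1), for the 42 DNA replication genes (red) and all 11929 genes tested (black), in the 3 comparisons. The medians of the red lines are -0.16 and -0.16 in the EZH2 shRNA and ZRANB1 siRNA panels, left of -0.01 and -0.02 for the black lines, and both medians are 0.01 in the panel of the controls.

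The scramble siRNA and scramble shRNA controls differed widely from each other. Of the 42 genes, 14 were higher and 7 lower with the scramble siRNA, 21 in all. In this comparison 50.6% of all genes tested were called, 25.5% higher and 25.1% lower. The kind of delivery and anything else that set these libraries apart cannot be told apart. This comparison uses the controls of both others, so its values are only set beside theirs. UNG had the largest difference among the members, at 91.4, 93.8 and 93.9 FPKM in scramble siRNA cells, against 38.8, 39.2 and 41.3 FPKM in scramble shRNA cells (log2 difference 1.21, adjusted p = 3.29e-08 by limma). GINS2 averaged 42.9 ± 1.27 FPKM in scramble siRNA cells and 23.7 ± 0.588 FPKM in scramble shRNA cells (log2 difference 0.83, adjusted p = 1.07e-06 by limma), and RFC5 49.3 ± 1.28 FPKM in scramble siRNA cells and 29.9 ± 2.31 FPKM in scramble shRNA cells (log2 difference 0.70, adjusted p = 8.25e-05 by limma). Each of these was higher in scramble siRNA cells without overlap. POLE, RPA1, CDC45 and MCM6, also called lower with the ZRANB1 siRNA, were called higher here too, and MCM4 was not. CDC45 averaged 32.5 ± 3.28 FPKM in scramble siRNA cells and 25.9 ± 1.09 FPKM in scramble shRNA cells. MCM6 averaged 38.3 ± 1.69 FPKM and 32.5 ± 2.43 FPKM, and its call was lost in 5 of 13 alternative settings. The part of these control differences in the ZRANB1 siRNA comparison was not tested.

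Some partners in 1 complex differed in opposite directions between the controls, where all genes tested were 25.5% higher and 25.1% lower. Other complexes did not: in the MCM2-7 ring 2 of 6 subunits were called higher and 0 lower. In the GINS complex, GINS2 was higher in scramble siRNA cells and GINS3 lower, at 11.1 ± 0.883 FPKM in scramble siRNA cells and 14.2 ± 0.622 FPKM in scramble shRNA cells (log2 difference -0.34). In polymerase delta, the log2 difference was 0.34 for POLD2 and -0.47 for POLD3, both accessory subunits. In polymerase epsilon it was 0.46 for POLE and 0.41 for POLE2. The epsilon subunits POLE3 and POLE4, from a further list, differed in opposite directions, each without overlap. POLE3 averaged 53.0 ± 0.453 FPKM in scramble siRNA cells and 67.2 ± 4.21 FPKM in scramble shRNA cells. POLE4 averaged 65.2 ± 2.66 FPKM in scramble siRNA cells and 54.4 ± 2.84 FPKM in scramble shRNA cells. The log2 difference was 0.32 for RPA1 and -0.26 for RPA2. PCNA was lower, at 90.3 ± 6.62 FPKM in scramble siRNA cells and 133 ± 10.4 FPKM in scramble shRNA cells (log2 difference -0.55, adjusted p = 1.21e-04 by limma), while its loader subunit RFC5 was higher. The origin recognition subunits ORC1 and ORC6 were lower, with log2 differences of -0.44 and -0.36, and the loading factors CDC6 and CDT1 were higher, with 0.37 and 0.45. RRM2 was higher, at 146 ± 14.2 FPKM in scramble siRNA cells and 87.8 ± 6.33 FPKM in scramble shRNA cells (log2 difference 0.72). The call of CDC6 was lost in 1 of 13 alternative settings (adjusted p of 0.00841 to 0.0522), that of CDT1 in 3 of 13 alternative settings (adjusted p of 0.0144 to 0.0804) and that of POLD2 in 5 of 13 alternative settings (adjusted p of 0.0135 to 0.107), by limma.

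Genes around this machinery were read from 5 further lists of 71 genes, all of them tested. With the EZH2 shRNA, 1 of the 71 rose and 1 fell, and the median difference was -0.07. Called genes were 2.82% of these, beside 6.41% of all genes tested. The difference was below 0 in 71.8% of the 71 and in 9 of 9 histone supply genes. The gene that rose was E2F7, an E2F family repressor, at 32.3 ± 3.72 FPKM in EZH2 shRNA cells and 23.5 ± 1.69 FPKM in scramble shRNA cells (log2 difference 0.44, adjusted p = 0.0262 by limma). The gene that fell was NASP, a histone chaperone, at 85.2 ± 1.88 FPKM in EZH2 shRNA cells and 107 ± 2.04 FPKM in scramble shRNA cells. Its log2 difference was -0.32 (adjusted p = 0.00821 by limma). In scramble siRNA cells NASP averaged 68.8 ± 2.09 FPKM, also below scramble shRNA cells. E2F1, an activator of replication genes, stood at 47.8, 56.6 and 67.1 FPKM in EZH2 shRNA cells, against 47.8, 48.3 and 49.0 FPKM in scramble shRNA cells, and was not called (adjusted p = 0.279 by limma). Of 16 other initiation factors, 16 other fork and maturation factors and 12 other nucleotide supply genes, 0 were called in this comparison, with 2, 3 and 0 at an unadjusted p below 0.05.

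With the ZRANB1 siRNA, 7 of the 71 fell and 1 rose, with a median of -0.11. Called genes were 11.3% of these (9.86% lower and 1.41% higher), beside 16.6% of all genes tested (6.50% lower and 10.1% higher). Of the 71, 78.9% lay below 0. Of the 7, 5 belonged to the 12 other nucleotide supply genes, whose median was -0.20. UMPS, which completes UMP synthesis, averaged 9.63 ± 0.683 FPKM in ZRANB1 siRNA cells and 12.1 ± 0.569 FPKM in scramble siRNA cells (log2 difference -0.30, adjusted p = 0.0193 by limma). CAD, which starts pyrimidine synthesis, averaged 40.5 ± 3.41 FPKM in ZRANB1 siRNA cells and 52.9 ± 4.28 FPKM in scramble siRNA cells (log2 difference -0.38, adjusted p = 0.0226 by limma). Both fell. The fork protection gene TIMELESS fell too, at 19.0 ± 1.38 FPKM in ZRANB1 siRNA cells and 24.2 ± 1.45 FPKM in scramble siRNA cells, as did the E2F partner gene TFDP2, at 8.09 ± 0.575 FPKM in ZRANB1 siRNA cells and 10.3 ± 0.269 FPKM in scramble siRNA cells. POLE3, an accessory subunit of polymerase epsilon, rose, at 61.1 ± 2.05 FPKM in ZRANB1 siRNA cells and 53.0 ± 0.453 FPKM in scramble siRNA cells. E2F1 averaged 48.0 ± 4.12 FPKM in ZRANB1 siRNA cells and 49.0 ± 3.68 FPKM in scramble siRNA cells and was not called. Of the 16 other initiation factors and 9 histone supply genes, 0 were called by limma, with 0 and 2 at an unadjusted p below 0.05.

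Mitotic genes were read beside these, with 21 of 22 listed genes tested. With the EZH2 shRNA, 1 of 21 fell, the securin gene PTTG1 (log2 difference -0.25, adjusted p = 0.0383 by limma), and the median was -0.08. That is 4.76% called, beside 6.41% of all genes tested (3.03% lower and 3.39% higher). Differences below 0 made up 14 of 21 (66.7%). With the ZRANB1 siRNA, 2 of 21 fell, the centromeric histone gene CENPA (-0.31) and the spindle assembly gene TPX2 (-0.20), and the median was -0.14. Called genes were 9.52% of this list, all lower, beside 16.6% of all genes tested (6.50% lower and 10.1% higher). The difference was below 0 in 19 of 21 (90.5%), and in 11 (52.4%) all 3 values lay below the control values, shares no lower than the 83.3% and 45.2% of the replication genes. MKI67, a general marker of cycling cells, averaged 57.4 ± 2.21 FPKM in EZH2 shRNA cells and 55.8 ± 0.743 FPKM in scramble shRNA cells, and 54.3 ± 2.44 FPKM in ZRANB1 siRNA cells and 58.4 ± 1.71 FPKM in scramble siRNA cells, and was called in neither comparison. In bulk samples such as these, fewer cells in S phase and less transcript per cell cannot be told apart.

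The sequences just before the starts of the called genes were read from RefSeq promoters of build GRCh38.p14, in which 36 of the 42 members had an entry. The window was the 250 bases before the start. It was searched on both strands for the E2F words TTTCCCGC, TTTGGCGC, TTTCGCGC and TTTGCCGC, which can overlap each other, for the NF-Y word CCAAT, and for the words TTTGAA and TTCGAA of the cell cycle homology region (CHR). An E2F word stood in 12 of 36 member promoters (33.3%), beside 404 of 8701 promoters of genes tested (4.64%), and CCAAT in 21 of 36 (58.3%), beside 35.7%. A CHR word was rarer, in 2 of 36 (5.56%), beside 9.49%. Of the 9 promoters of genes called in a knockdown comparison, 4 held an E2F word (44.4%) and 8 held CCAAT (88.9%); of the 27 promoters of members called in neither, 8 (29.6%) and 13 (48.1%) did. A match is only a run of letters, and binding was not measured. The windows below are shown because they belong to called genes: MCM6 was called lower in both comparisons, MCM3 with the EZH2 shRNA, where a difference from its ZRANB1 siRNA effect was not shown (adjusted p = 0.268 by limma), and GINS2 and UNG passed the test of a difference between the effects. Sequences run 5′ to 3′ and capitals mark E2F words on either strand.
MCM6 (chr2:135876444-135876693, minus strand): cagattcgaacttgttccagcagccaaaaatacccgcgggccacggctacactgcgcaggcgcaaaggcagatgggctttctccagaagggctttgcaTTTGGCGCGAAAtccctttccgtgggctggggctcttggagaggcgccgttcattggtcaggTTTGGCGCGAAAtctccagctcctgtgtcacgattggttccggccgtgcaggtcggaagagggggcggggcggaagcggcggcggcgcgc
MCM3 (chr6:52284743-52284992, minus strand): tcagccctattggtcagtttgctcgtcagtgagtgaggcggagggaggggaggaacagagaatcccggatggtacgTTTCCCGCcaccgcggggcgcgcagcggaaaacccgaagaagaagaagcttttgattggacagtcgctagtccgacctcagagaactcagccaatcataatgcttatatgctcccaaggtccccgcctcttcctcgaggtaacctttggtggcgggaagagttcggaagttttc
GINS2 (chr16:85688955-85689204, minus strand): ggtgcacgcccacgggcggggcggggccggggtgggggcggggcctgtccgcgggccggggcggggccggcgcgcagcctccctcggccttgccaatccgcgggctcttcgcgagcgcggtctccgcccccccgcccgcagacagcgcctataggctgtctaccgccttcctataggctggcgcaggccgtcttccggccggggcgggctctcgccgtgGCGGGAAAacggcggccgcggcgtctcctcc
UNG (chr12:109097347-109097596, plus strand): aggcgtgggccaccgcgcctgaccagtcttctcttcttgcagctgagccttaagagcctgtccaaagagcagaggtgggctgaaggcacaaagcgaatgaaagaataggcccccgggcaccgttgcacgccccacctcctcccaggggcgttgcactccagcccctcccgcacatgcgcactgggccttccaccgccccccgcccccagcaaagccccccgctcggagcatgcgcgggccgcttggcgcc

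MCM6 held 4 E2F words, as overlapping pairs read from opposite strands, whose first bases lay 152, 148, 90 and 86 bases before the start. MCM3 held 1, at 174 bases, and GINS2 held 1, at 31 bases before the start. The UNG window held 0 E2F words and 0 CCAAT words, which says only that these letters are not in this window.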

How the data were processed

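The authors deposited expression as FPKM, in 1 table of 26006 rows and 12 value columns. The submitters' processing notes name Cuffdiff 2.2.1, Cufflinks 2.2.1, SAMtools, TopHat2 2.1.1 and build hg19. Their options, the annotation, the strand setting and any scaling among libraries: not given in the sources used here. Of 440 symbols found on several rows, only the row of highest mean entered, and 27 rows whose symbols had become dates were left unmerged.

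limma 3.58.1 (R 4.3.3) was run on log2(FPKM + 1), a scale that understates the change of low genes. All 4 group means entered 1 fit with 8 residual degrees of freedom and an intensity trend, and p-values were adjusted over all 11929 genes averaging 1 FPKM or more. A column followed no library, so libraries could not be scaled singly. Depth is unknown, and 3 values per group limit the precision. Exact permutation tests used SciPy 1.17.1, and figures matplotlib 3.10.9 in Python 3.11.15.

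The members and gene lists were chosen with earlier results of these data known. The naming rule took every value of members called in a knockdown comparison, up to 2 examples per role by highest mean for the others, EZH2, ZRANB1, E2F1, and up to 3 genes of each further list by adjusted p; 1 gene under this rule is not reported here. MCM5, GINS1, GINS3, POLA1, POLE2, POLD3, ORC1, RFC1 to RFC3 and MKI67 were named after their values were seen, as were TPRA1, CD44, LAMB3 and POLE4. Alternatives were a pseudocount of 0.1 FPKM, no filter, a filter at 5 FPKM, 1 scaling factor per group, no trend, summed rows, the compared groups alone, and leaving out 1 value.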

Additional observations from a re-analysis of the deposited data

Results flagged for a closer look

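UNG and GINS2 passed a limma test of the difference between the EZH2 shRNA effect and the ZRANB1 siRNA effect, GINS2 only narrowly. For UNG the EZH2 shRNA effect minus the ZRANB1 siRNA effect was 0.36 on the log2 scale (SE 0.086, adjusted p = 0.0205 by limma), and all 3 values lay below the control values in both comparisons. For GINS2 it was 0.32 (SE 0.091, adjusted p = 0.0494 by limma), with all 3 values below the control values for the ZRANB1 siRNA and overlapping values for the EZH2 shRNA. The call of GINS2 was lost in 13 of 18 alternative settings (adjusted p of 0.0354 to 0.115) and that of UNG in 1 of 18 alternative settings (adjusted p of 0.0107 to 0.0508). Both genes were also higher in the scramble siRNA control than in the scramble shRNA control, by 1.21 and 0.83 on the log2 scale; the part of this in the difference was not tested.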

How the results depend on the processing

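No paired analysis was possible because the values of a group stood in text order within each row, so that a replicate number named no library; the fit with a replicate block was not run. For the same reason leaving out 1 value removed a value drawn at random in each gene, not a library. Among the results run, 0 reversed, where a change of sign counted only if the gene was called in the main or the alternative fit. Differences that were not called did change sign, as RFC5 did with the EZH2 shRNA (-0.115 to 0.0045). With the EZH2 shRNA 4 members were called, against 1 with the compared groups alone and 2 to 4 without 1 value; over all genes 765 were called, against 185 with the compared groups alone, 503 with the filter at 5 FPKM, which tests fewer genes, and 402 to 610 without 1 value. With the ZRANB1 siRNA 8 members were called, and 5 to 8 without 1 value. In single settings PRIM1 or RPA1 was called lower and GINS1 higher with the EZH2 shRNA. Between the controls 21 were called, and 15 to 19 without 1 value. The difference of effects was called for 2 members, for 1 with a pseudocount of 0.1 FPKM, with no trend or with 1 scaling factor per group, and for 0 to 2 without 1 value. The cause of the other lost calls was not tested. Scaling by group changed the sign of 0 called members; of those not called it changed FEN1 with the ZRANB1 siRNA and PRIM1, RFC2 and LIG1 between the controls. The depth is unknown, so no counting error can be given.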

Other observations

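Neighbouring genes were looked up by name in GENCODE 29. Of the 42 members, 14 had a protein-coding gene on the opposite strand that starts within 1000 bases. MCM4 starts beside PRKDC, the catalytic subunit of DNA-dependent protein kinase. PRKDC averaged 34.5 ± 2.60 FPKM in EZH2 shRNA cells and 37.3 ± 2.48 FPKM in scramble shRNA cells (log2 difference -0.11, adjusted p = 0.483 by limma). It averaged 36.6 ± 2.70 FPKM in ZRANB1 siRNA cells and 45.2 ± 1.73 FPKM in scramble siRNA cells (log2 difference -0.30, adjusted p = 0.0275 by limma). MCM2 starts beside TPRA1, whose exons overlap its own on the opposite strand. TPRA1 averaged 18.5 ± 3.34 FPKM in EZH2 shRNA cells and 27.0 ± 2.57 FPKM in scramble shRNA cells and was called lower (log2 difference -0.53, adjusted p = 0.039 by limma). ORC6 starts beside VPS35, an endosomal sorting gene, which was not called with the EZH2 shRNA (log2 difference -0.22, adjusted p = 0.199 by limma). POLE starts beside PXMP2, a peroxisomal membrane gene, which was not called with the ZRANB1 siRNA (log2 difference -0.33, adjusted p = 0.186 by limma).

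Exons of 14 members overlap those of a gene on the opposite strand. GINS2 overlaps GSE1, which was not called with the ZRANB1 siRNA (log2 difference 0.04, adjusted p = 0.759 by limma) and was lower in the scramble siRNA control than in the scramble shRNA control (log2 difference -0.36, adjusted p = 0.00214 by limma). Whether counting used strand is not given in the sources here, so reads of such pairs may be split between them.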
